A study of Mus musculus with 12 samples.

Results

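Regulators of G protein signalling (RGS proteins) were followed here across 4 groups of mouse macrophages. The genes described are Rgs1, Rgs2, Rgs3, Rgs10, Rgs12, Rgs14, Rgs16, Rgs18 and Rgs19, chosen by name, and all 9 were found once each among the 55487 gene models of the expression table. A further 15 genes with RGS names or partners of RGS proteins are given at the end for comparison. RNA was sequenced from bone marrow-derived macrophages (BMDMs), which are grown from the marrow of the femur and tibia in medium conditioned by L929 cells. The donors were C57BL/6 mice aged 8 to 12 weeks. The 4 groups were LPS-treated and untreated macrophages of Rasgef1b-fl/fl;CMVcre mice (KO, or RasGEF1b-cKO), and LPS-treated and untreated macrophages of wildtype mice (WT). LPS, the lipopolysaccharide of Escherichia coli O55:B5, was given at 100 ng/ml for 4 h, and each group had 3 libraries, 12 in all. RasGEF1b is a guanine nucleotide exchange factor of Ras-like GTPases. The CMV-Cre transgene is active in all tissues including the germ line, so exons 7 and 8 of Rasgef1b are missing from every cell of the KO mice and not from macrophages alone. The WT mice came from an institutional animal facility and are not described as littermates. Genotype and colony therefore cannot be told apart.

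Receptors of the G protein-coupled class act through a G alpha subunit that is on when it holds GTP and off once the GTP is hydrolysed. RGS proteins bind the GTP-bound G alpha subunit and speed up that hydrolysis, so they shorten signalling by chemokine, lipid mediator and complement receptors, which guide the movement of macrophages and other leukocytes. The family is divided by its RGS domain and flanking regions. The R4 group (Rgs1, Rgs2, Rgs3, Rgs16 and Rgs18) has mostly small proteins, the R12 group (Rgs10, Rgs12 and Rgs14) holds the smallest protein and a pair of large scaffolds, and Rgs19 belongs to the RZ group.

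The levels are normalized counts, that is reads per gene divided by a size factor for each library, and a mean ± SD is over the 3 libraries of a group. The recovered reads number 19316691 to 24977356 per library. Rasgef1b, the deleted gene, was lower in KO macrophages, at 3618 to 4192 normalized counts in KO LPS-treated macrophages against 11844 to 12554 in WT LPS-treated macrophages, and at 545 to 695 in KO untreated macrophages against 2001 to 2171 in WT untreated macrophages. Replicate 2 of the KO untreated macrophages stood apart, with 5.06% of its reads on a ribosomal RNA model (CT010467.1) against 0.0398% to 0.0874% in the other 11 libraries. All 7 macrophage markers on the list were expressed, with a summed level of 250707 to 314017 in KO LPS-treated, 314337 to 363940 in WT LPS-treated, 210285 to 262668 in KO untreated and 256386 to 317241 in WT untreated macrophages. On this scale the sum was lower in all KO than in all WT LPS-treated libraries, and the untreated ranges overlapped. As CPM the LPS-treated ranges overlapped as well, at 9650 to 11613 in KO and 11562 to 12888 in WT. The T cell markers summed to at most 2.15. Neutrophil markers summed to 289 to 786 in KO LPS-treated, 235 to 466 in WT LPS-treated, 156 to 351 in KO untreated and 172 to 351 in WT untreated macrophages, and dendritic cell markers to 80.3 to 106, 56.3 to 86.0, 9.41 to 19.8 and 10.4 to 17.8 in the same 4 groups. Only 1 of the 5 dendritic cell markers, Xcr1, had a mean of at least 10. B cell markers summed to 29.9 to 65.3, 46.4 to 59.8, 34.4 to 86.1 and 33.9 to 70.1, with Cd79b alone at such a mean. Erythroid markers summed to at most 8.76 and fibroblast markers to at most 55.6. The highest macrophage marker was Lyz2, at a mean of 172023. The part of other cell types in the results was not tested. In bulk RNA, fewer cells of a type and less RNA per cell cannot be told apart.

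All 9 RGS genes were measured in every library, and per length of exon they covered a wide span. Rgs2, a regulator that prefers Gq among the G alpha subunits, had the highest level in all 4 groups at 2306 ± 269 normalized counts per kb of merged exon in KO LPS-treated, 2068 ± 372 in WT LPS-treated, 1760 ± 93.9 in KO untreated and 1851 ± 163 in WT untreated macrophages. Rgs10, the smallest protein of the 9 and an inhibitor of Gi signalling in microglia and macrophages, came next in untreated cells, with 1521 ± 100 per kb in KO and 1448 ± 80.2 per kb in WT macrophages. Rgs1, which limits chemokine receptor signalling in leukocytes, came after Rgs10 in untreated cells and before it in LPS-treated cells, where it reached 1496 ± 192 per kb in KO and 1087 ± 121 per kb in WT macrophages. Rgs3, a regulator of Gi and Gq that also binds G beta-gamma, was lowest in all 4 groups by merged exons, at 3.24 ± 0.69 per kb in KO LPS-treated and 8.99 ± 1.76 per kb in KO untreated macrophages.

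Most neighbours in this order were separate in their library ranges. The ranges per kb overlapped between Rgs19 and Rgs18 in KO LPS-treated macrophages, between Rgs1 and Rgs10, Rgs14 and Rgs18, and Rgs18 and Rgs19 in WT LPS-treated macrophages, and between Rgs1 and Rgs18 in WT untreated macrophages. Against all genes with a mean of at least 10, the level of Rgs2 per kb lay above 95.2% of genes in KO LPS-treated and 96.7% in KO untreated macrophages, and that of Rgs3 above 3.04% and 10.2%. The order depends on the length used. With the longest transcript in place of the merged exons, 16 of 36 ranks moved, Rgs10 came above Rgs2 in both untreated groups, it came above Rgs1 in both LPS-treated groups, and Rgs12 came below Rgs3 in WT untreated macrophages.

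**Figure D1:**
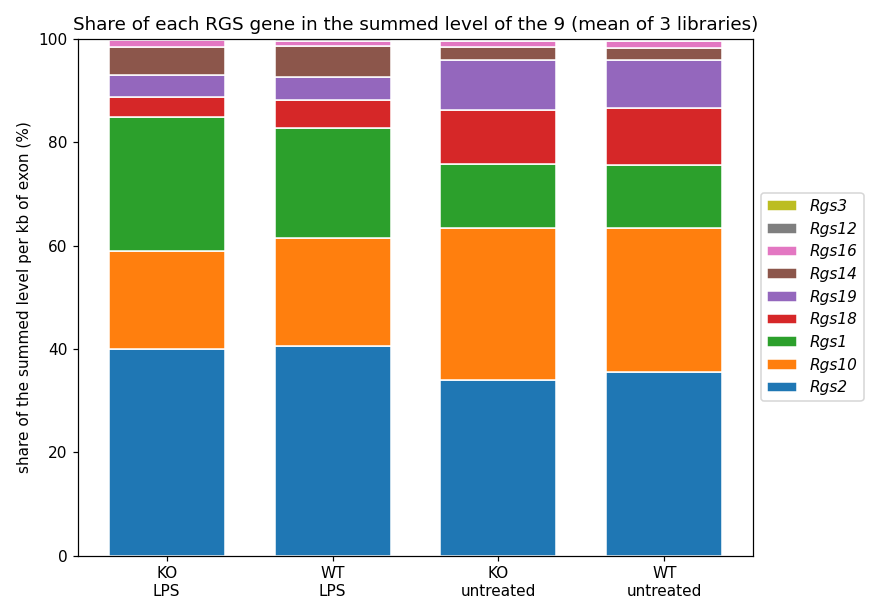
Share of each of the 9 RGS genes in their summed level per kb of merged exon (y axis, percent, mean of 3 libraries) in the 4 groups (x axis). The share of Rgs1 was 26.0% in KO LPS-treated and 21.4% in WT LPS-treated against 12.4% in KO untreated and 12.2% in WT untreated macrophages, while Rgs2 held 34.0% to 40.5% in all 4.

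On the scale of normalized counts, the makeup of the family thus differed between treatments more than its total. The summed level per kb was 5627 to 5883 in KO LPS-treated, 4448 to 5488 in WT LPS-treated, 5137 to 5258 in KO untreated and 4970 to 5404 in WT untreated macrophages. All KO LPS-treated sums lay above the KO untreated ones, and the WT ranges overlapped. The total rests on the size factors, as a read was worth 1.21 to 1.41 normalized counts in LPS-treated and 0.660 to 0.855 in untreated libraries. Rgs10 made up 18.9% of it in KO LPS-treated and 20.8% in WT LPS-treated against 29.4% in KO untreated and 27.9% in WT untreated macrophages. Rgs18 and Rgs19 each held a smaller share in the LPS-treated groups. Rgs18 held 3.87% and 5.43% in KO and WT LPS-treated macrophages against 10.5% and 10.99% in KO and WT untreated macrophages, and Rgs19 held 4.17% and 4.47% against 9.67% and 9.35%.

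The genes Rgs1, Rgs2 and Rgs18 lie close together on chromosome 1 of GRCm38, all in reverse orientation, Rgs2 at 143999338 to 144004161, Rgs1 at 144242296 to 144249242 and Rgs18 at 144752683 to 144775435, and Rgs16 lies further along the same chromosome on the forward strand, at 153740349 to 153745468. The others are spread over chromosomes 2 (Rgs19, 181688419 to 181693977, reverse), 4 (Rgs3, 62559847 to 62704001, forward), 5 (Rgs12, 34949445 to 35039644, forward), 7 (Rgs10, 128373621 to 128418758, reverse) and 13 (Rgs14, 55369732 to 55384687, forward). Since these genes are copies of one ancestor, reads could be shared between them. The longest exact runs shared by the coding sequences of the 9 genes were therefore taken from the GENCODE transcripts. They had 8 to 23 nt over the 36 pairs. The pairs with the longest runs are shown with the shared run in capitals and 12 coding bases on each side in lower case, 5′ to 3′ on the coding strand.
Rgs1: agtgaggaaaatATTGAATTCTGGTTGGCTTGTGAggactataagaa
Rgs2: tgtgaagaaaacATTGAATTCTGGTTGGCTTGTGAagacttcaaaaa
Rgs3: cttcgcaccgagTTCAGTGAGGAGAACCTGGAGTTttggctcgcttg
Rgs16: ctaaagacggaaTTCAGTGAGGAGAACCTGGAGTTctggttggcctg
Rgs10: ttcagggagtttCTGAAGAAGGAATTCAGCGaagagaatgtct
Rgs14: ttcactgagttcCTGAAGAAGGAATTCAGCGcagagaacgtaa
The run is 23 nt in Rgs1 and Rgs2 and in Rgs3 and Rgs16, and 19 nt in Rgs10 and Rgs14. No 31-base stretch of Rgs1, Rgs2, Rgs10, Rgs18 or Rgs19 transcripts occurs in another annotated gene. Such stretches make up 12.5% of those of Rgs3, mostly shared with Gm5763, 9.09% of those of Rgs16, shared with the antisense gene Gm28513 at a mean of 0.674 normalized counts, 4.76% of those of Rgs12, shared with the antisense gene Gm43791, which has 0 counts, and 3.06% of those of Rgs14. Rgs3 thus had the largest share of such stretches of the 9 genes, and their part in the counts was not tested.

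RefSeq promoter windows on GRCm38.p6 were matched for Rgs2, Rgs3, Rgs10, Rgs12, Rgs16 and Rgs19. The 250 bases before the start are printed for Rgs2, which had the highest level, and for Rgs16 and Rgs19, whose replicates spread the most and the least. The window of Rgs2 is chr1:144004150-144004399 on the reverse strand, that of Rgs16 is chr1:153740103-153740352 on the forward strand and that of Rgs19, for the most upstream of 3 starts, is chr2:181693978-181694227 on the reverse strand. Capitals mark the GC box GGGCGG on either strand, which appears as CCGCCC where it lies on the other strand.
Rgs2: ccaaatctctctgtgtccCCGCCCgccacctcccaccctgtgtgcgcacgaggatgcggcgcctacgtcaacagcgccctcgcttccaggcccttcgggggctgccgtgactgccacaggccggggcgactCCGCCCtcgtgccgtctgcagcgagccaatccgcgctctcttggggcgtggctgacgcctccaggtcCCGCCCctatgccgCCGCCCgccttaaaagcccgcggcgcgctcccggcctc
Rgs16: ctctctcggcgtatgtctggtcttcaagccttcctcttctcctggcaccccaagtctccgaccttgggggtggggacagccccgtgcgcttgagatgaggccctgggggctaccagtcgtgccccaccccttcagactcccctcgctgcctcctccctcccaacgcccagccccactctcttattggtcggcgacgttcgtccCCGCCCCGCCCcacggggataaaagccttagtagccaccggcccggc
Rgs19: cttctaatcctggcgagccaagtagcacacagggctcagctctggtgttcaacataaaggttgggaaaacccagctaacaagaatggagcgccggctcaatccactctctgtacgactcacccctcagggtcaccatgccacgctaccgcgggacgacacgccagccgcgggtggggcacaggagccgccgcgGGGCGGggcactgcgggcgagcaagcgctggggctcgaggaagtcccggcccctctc
The GC box occurs 4 times in the Rgs2 window, 2 times in that of Rgs16, where the matches share a base, and 1 time in that of Rgs19. Of all 32851 promoter windows of 300 bases, 35.7% hold it. The windows were also searched on both strands for TGANTCA, TGACGTCA, the interferon-stimulated response element (ISRE) core and the NF-kB motif, which occur in 7.81%, 1.79%, 3.44% and 8.46% of all windows. Among the 10 windows of the RGS genes, only the second start of Rgs12 held any of these, 1 TGANTCA and 1 NF-kB match. A match describes the letters in a window and is not a binding site.

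LPS moved the family in both directions, in KO and in WT macrophages. A change was called at an adjusted p under 0.05 and at least 2-fold, with limma and Benjamini-Hochberg adjustment over all genes tested. In KO macrophages, Rgs1 and Rgs14 rose and Rgs3, Rgs18 and Rgs19 fell, which is 2 and 3 of 9 genes, against 17.3% of 12732 genes tested that rose and 16.6% that fell. In WT macrophages, Rgs14 rose and Rgs3, Rgs18 and Rgs19 fell, which is 1 and 3 of 9, against 17.1% of 12656 genes that rose and 16.9% that fell. At an adjusted p under 0.05 alone, 7 of 9 genes passed in each genotype, near the 72.1% and 73.2% of all genes that did so. The median log2 fold change of the 9 was -0.12 in KO and -0.28 in WT macrophages, beside -0.01 and -0.02 over all genes.

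**Figure D2:**
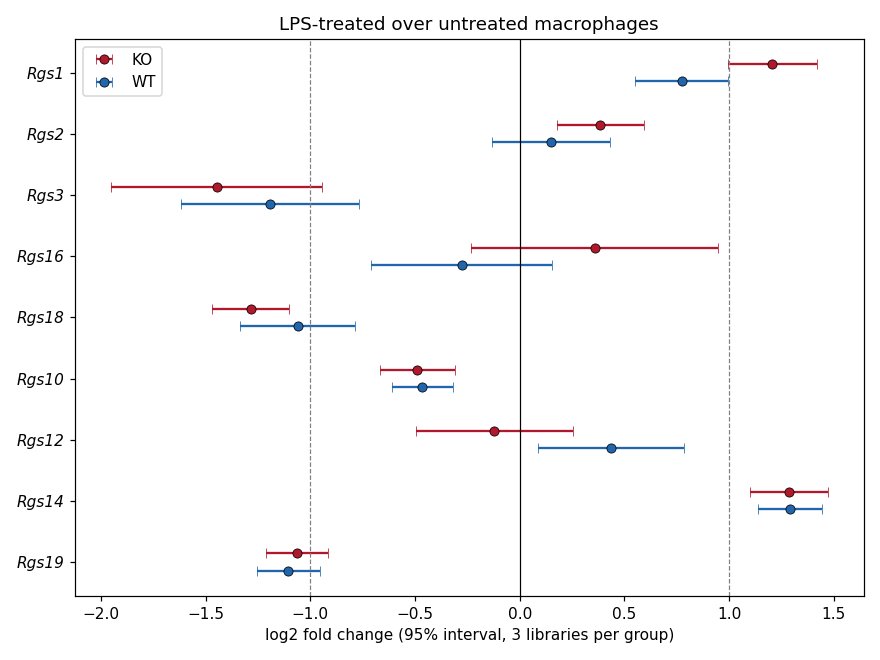
Log2 fold change of LPS-treated over untreated macrophages (x axis) for the 9 RGS genes (y axis) in KO (red) and WT (blue), with 95% intervals from limma over 3 libraries per group and dashed lines at the 2-fold threshold. Rgs14 lay at 1.29 in both genotypes, Rgs3, Rgs18 and Rgs19 lay below -1 in both, and Rgs1 lay at 1.21 in KO and 0.77 in WT.

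Rgs1 was the R4 gene that rose most. Its level was 11920, 9804 and 9450 normalized counts in KO LPS-treated macrophages against 4465, 4704 and 4275 in KO untreated macrophages. In WT it was 8169, 7886 and 6591 in LPS-treated against 4757, 4576 and 3903 in untreated macrophages. Every LPS-treated library of both genotypes lay above every untreated one. On the log2 scale the change was 1.21 ± 0.09 in KO (SE, limma adjusted p = 4.62e-06) and 0.77 ± 0.10 in WT (adjusted p = 7.11e-05), which is 2.31-fold and 1.71-fold, so the WT value passed the p threshold and not the fold threshold. These values rest on the scaling: with quantile normalization they were 0.28 in KO and -0.13 in WT, a turn of direction in WT, and with scaling to total reads 0.52 in KO and 0.05 in WT, so the KO call was lost in both.

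Rgs2, another R4 gene of the chromosome 1 group, gave no call. It had 7452, 9396 and 8247 normalized counts in KO LPS-treated against 6153, 6776 and 6227 in KO untreated macrophages, and 8639, 7856 and 6008 in WT LPS-treated against 7302, 6722 and 6119 in WT untreated macrophages. The KO groups did not overlap, while replicate 3 of the WT LPS-treated macrophages was lower than all 3 WT untreated libraries. The log2 fold change was 0.38 ± 0.09 in KO (limma adjusted p = 0.00462) and 0.15 ± 0.12 in WT (adjusted p = 0.310), neither of them 2-fold. It turned negative with quantile normalization, at -0.53 in KO and -0.75 in WT, and with scaling to total reads, at -0.30 in KO and -0.58 in WT.

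Rgs18, an R4 regulator best known from megakaryocytes and platelets, fell in both genotypes. It had 431, 480 and 445 normalized counts in KO LPS-treated against 1045, 1207 and 1059 in KO untreated macrophages. In WT it had 667, 527 and 487 in LPS-treated against 1286, 1151 and 1052 in untreated macrophages. No library of an LPS-treated group reached the lowest untreated one. This was a log2 fold change of -1.28 ± 0.08 in KO (limma adjusted p = 1.24e-06) and -1.06 ± 0.12 in WT (adjusted p = 3.44e-05). The WT value lay close to the fold threshold and was -0.99 without WT untreated replicate 1, -0.97 without WT LPS replicate 3 and -0.88 with upper quartile scaling. Of the 6 megakaryocyte and platelet markers, Gp1bb was at 0 in all libraries, 2 had a mean of at least 10, and their sum, nearly all of it Pf4, was 10829 to 12416 in KO LPS-treated and 9981 to 11239 in WT LPS-treated against 7705 to 8671 in KO untreated and 7155 to 8314 in WT untreated macrophages. That sum was higher with LPS on this scale, and as CPM, scaled to the total reads of each library, it was 417 to 448 in KO LPS-treated and 367 to 398 in WT LPS-treated against 443 to 530 in KO untreated and 426 to 502 in WT untreated macrophages. Its part in the Rgs18 values was not tested.

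Rgs3 was expressed at a low level and fell as well. It had 43.5, 31.4 and 29.9 normalized counts in KO LPS-treated against 110, 75.3 and 106 in KO untreated macrophages, and 45.0, 30.0 and 37.6 in WT LPS-treated against 82.3, 86.5 and 89.2 in WT untreated macrophages. The treatments did not overlap in either genotype. Limma gave a log2 fold change of -1.45 ± 0.22 in KO (limma adjusted p = 3.53e-04) and -1.19 ± 0.19 in WT (adjusted p = 3.03e-04). With quantile normalization the WT value was -0.96 and thus under the fold threshold.

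Rgs16, a regulator of Gi and Gq that restrains lymphocyte trafficking, gave no call and had the widest spread between replicates, with a pooled within-group SD of 0.37 on the log2 scale against 0.06 for Rgs19. It had 134, 213 and 214 normalized counts in KO LPS-treated against 98.1, 174 and 170 in KO untreated macrophages, and 144, 139 and 121 in WT LPS-treated against 178, 203 and 119 in WT untreated macrophages. In both KO groups replicate 1 was the lowest, and in both WT groups replicate 3 was. The treatments overlapped in both genotypes. The log2 fold change was 0.36 ± 0.26 in KO (limma adjusted p = 0.240) and -0.28 ± 0.19 in WT (adjusted p = 0.215). A fit with the replicate number as a block treated libraries of the same number as pairs. There the limma adjusted p was 0.0164 in KO and 0.0979 in WT. Without the block, the adjusted p in KO was 0.284 with edgeR and 0.202 with DESeq2, and in WT 0.125 and 0.188. With scaling to total reads the KO value was -0.32, and with quantile normalization the WT value was 0.05.

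**Figure D3:**
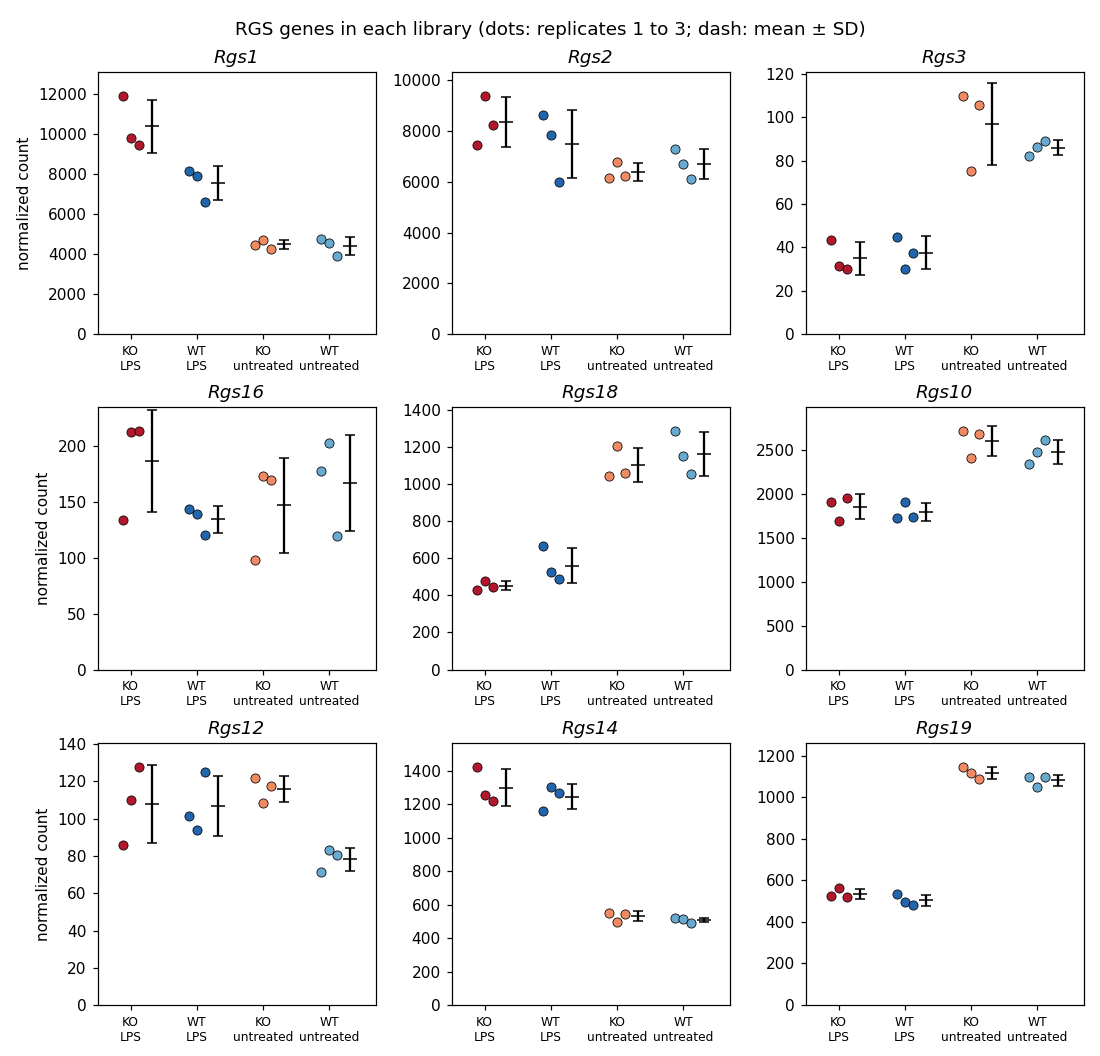
Normalized counts (y axis, linear from 0) of the 9 RGS genes in each library of the 4 groups (x axis). Dots are replicates 1 to 3 and the dash with its bar is the mean ± SD of 3 libraries. Rgs14 and Rgs1 are higher in every LPS-treated library, Rgs3, Rgs10, Rgs18 and Rgs19 are lower in every one, and Rgs16 overlaps between all groups.

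The R12 genes went separate ways. Rgs14, a scaffold with a GoLoco motif that binds inactive Gi and with domains that bind Ras-like GTPases, rose in both genotypes. It had 1426, 1257 and 1220 normalized counts in KO LPS-treated against 552, 499 and 546 in KO untreated macrophages. In WT it had 1164, 1305 and 1271 in LPS-treated against 519, 512 and 494 in untreated macrophages. Its log2 fold change was 1.29 ± 0.08 in KO (limma adjusted p = 1.23e-06) and 1.29 ± 0.07 in WT (adjusted p = 1.36e-07), and the treatments lay far apart in all libraries. With scaling to total reads the direction held but the values of 0.60 and 0.57 were under the fold threshold.

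Rgs10 was lower in LPS-treated macrophages by less than 2-fold. It had 1913, 1693 and 1957 normalized counts in KO LPS-treated against 2716, 2406 and 2686 in KO untreated macrophages, and 1728, 1913 and 1742 in WT LPS-treated against 2337, 2483 and 2611 in WT untreated macrophages. The groups did not overlap in either genotype. This is a log2 fold change of -0.49 ± 0.08 in KO (limma adjusted p = 4.62e-04) and -0.46 ± 0.06 in WT (adjusted p = 1.35e-04). It passed the fold threshold with quantile normalization, at -1.05 in KO and -1.01 in WT, and with scaling to total reads, at -1.18 and -1.19.

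Rgs12, the largest RGS scaffold, which also carries a GoLoco motif and Ras-binding domains, had low levels. It had 85.9, 110 and 128 normalized counts in KO LPS-treated against 122, 109 and 117 in KO untreated macrophages, where the groups overlapped. In WT it had 101, 94.2 and 125 in LPS-treated against 71.3, 83.2 and 80.5 in untreated macrophages, where they did not. The log2 fold change was -0.12 ± 0.16 in KO (limma adjusted p = 0.525) and 0.44 ± 0.15 in WT (adjusted p = 0.0286). The KO value turned to 0.07 with upper quartile scaling and 0.19 with quantile normalization, and the WT value to -0.28 with scaling to total reads.

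Rgs19, the RZ member also known as GAIP, which acts on Gi subunits, fell in both genotypes and had the tightest replicates. It had 524, 561 and 519 normalized counts in KO LPS-treated against 1147, 1117 and 1089 in KO untreated macrophages. In WT it had 535, 495 and 480 in LPS-treated against 1099, 1052 and 1097 in untreated macrophages. All LPS-treated libraries were at about the same level, and so were all untreated ones. Its log2 fold change was -1.06 ± 0.07 in KO (limma adjusted p = 9.72e-07) and -1.10 ± 0.07 in WT (adjusted p = 3.93e-07). With upper quartile scaling it was -0.87 and -0.93, under the fold threshold.

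**Figure D4:**
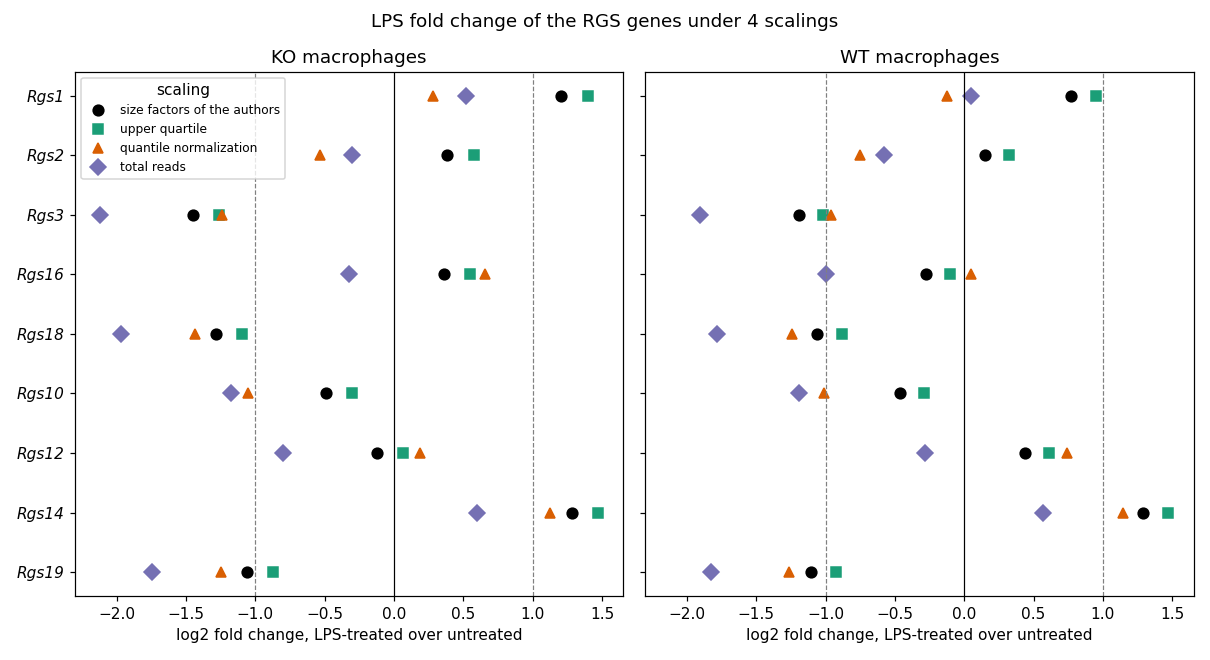
Log2 fold change of LPS-treated over untreated macrophages (x axis) for the 9 RGS genes (y axis) in KO (left) and WT (right) under 4 scalings, with dashed lines at the 2-fold threshold. Rgs3, Rgs10, Rgs18 and Rgs19 lie below 0 and Rgs14 above 0 under all 4, Rgs1 lies above 0 in KO under all 4 and below 0 in WT with quantile normalization, and Rgs2, Rgs12 and Rgs16 change sides.

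The scaling moved several of these values. The LPS-treated libraries had reads in 18693 to 19522 gene models and the untreated ones in 20343 to 22246, and a read was worth 1.21 to 1.41 normalized counts in LPS-treated and 0.660 to 0.855 in untreated libraries, at about equal depth. Scaling to total reads, an alternative chosen after the data were seen, moved the median log2 fold change of all genes by -0.68 in KO and -0.72 in WT. It called 1447 genes higher and 4621 lower in KO in place of 2201 and 2108, and 1379 higher and 4784 lower in WT in place of 2158 and 2136. The RGS calls were then Rgs3, Rgs10, Rgs18 and Rgs19, all lower, in both genotypes. Quantile normalization moved the median of all genes by -0.14 in KO and -0.13 in WT, and upper quartile scaling by 0.19 and 0.17.

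Between the genotypes, no RGS gene passed the test. In untreated macrophages 0 of 9 genes were called, against 0.193% of 12461 genes tested (24 genes, and 4 to 26 when 1 library was left out), and 0 passed at an adjusted p under 0.05 alone, against 0.538%. In LPS-treated macrophages 0 of 9 were called, against 0.232% of 12504 genes (29 genes, and 11 to 42 when 1 library was left out), and 0 passed at an adjusted p alone, against 0.816%. At an unadjusted p under 0.05, limma counted 1 gene (Rgs12) in untreated and 3 genes (Rgs1, Rgs16 and Rgs18) in LPS-treated macrophages, against 10.8% and 10.6% of all genes tested. The quasi-likelihood test of edgeR and DESeq2 on the recovered reads also called 0 in both. At an adjusted p alone, DESeq2 counted 1 gene, Rgs1 in LPS-treated macrophages, and edgeR 0.

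**Figure D5:**
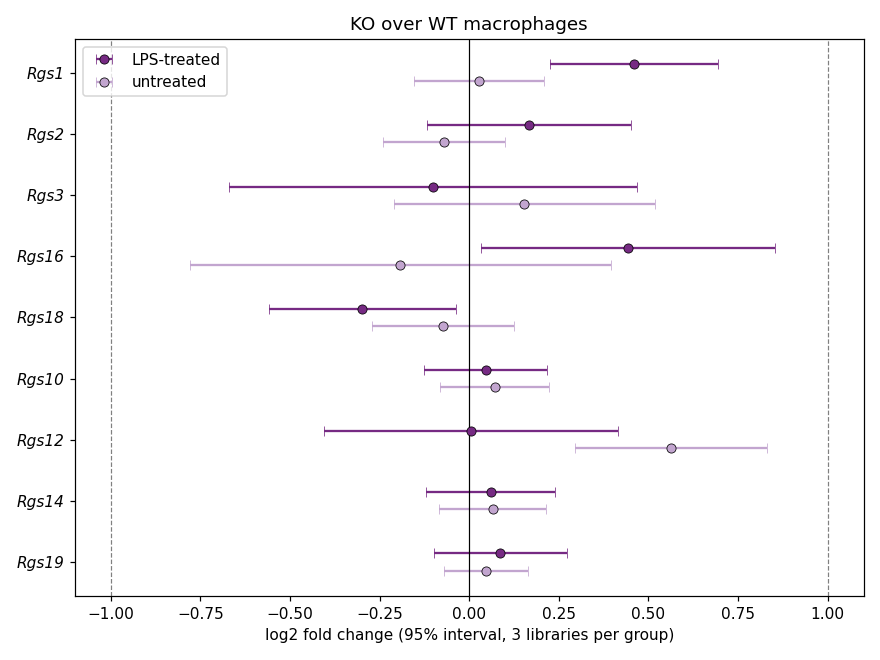
Log2 fold change of KO over WT (x axis) for the 9 RGS genes (y axis) in LPS-treated (dark) and untreated (light) macrophages, with 95% intervals from limma over 3 libraries per group and dashed lines at the 2-fold threshold. Rgs12 in untreated macrophages at 0.56 and Rgs1 in LPS-treated macrophages at 0.46 lie farthest from 0 in units of their error, and no interval reaches 1 or -1.

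Rgs12 had the largest difference in untreated macrophages. Its 122, 109 and 117 normalized counts in KO untreated macrophages lay above the 71.3, 83.2 and 80.5 in WT untreated macrophages without overlap. The difference was 0.56 ± 0.12 on the log2 scale (95% interval 0.30 to 0.83, limma adjusted p = 0.0962). In LPS-treated macrophages it was 0.00 ± 0.19, with an interval of -0.40 to 0.41, and turned to -0.01 with upper quartile scaling.

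Rgs1 had the lowest adjusted p of the 9 genes between the genotypes in LPS-treated macrophages. Its 11920, 9804 and 9450 normalized counts in KO lay above the 8169, 7886 and 6591 in WT LPS-treated macrophages without overlap. The difference was 0.46 ± 0.11 on the log2 scale (95% interval 0.23 to 0.69, limma adjusted p = 0.101), and DESeq2 gave an adjusted p of 0.00347. In untreated macrophages the KO level of 4481 ± 215 and the WT level of 4412 ± 450 overlapped, with a log2 fold change of 0.03 ± 0.08.

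Rgs18 was lower in all KO LPS-treated than in all WT LPS-treated libraries, at 452 ± 25.3 against 560 ± 94.7 normalized counts, a log2 fold change of -0.30 ± 0.12 (limma adjusted p = 0.405), which was -0.17 without WT LPS replicate 1. Rgs16 had 187 ± 45.7 in KO and 135 ± 12.0 in WT LPS-treated macrophages with overlap, a log2 fold change of 0.44 ± 0.18 (limma adjusted p = 0.434), which was 0.66 without KO LPS replicate 1. The other 5 genes differed by -0.10 to 0.17 on the log2 scale in LPS-treated macrophages. Over all 9 genes, the 95% intervals reached from -0.78 to 0.83 in untreated and from -0.67 to 0.85 in LPS-treated macrophages, so a 2-fold difference lay outside each of them.

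The LPS responses were also set against each other, as the LPS change in KO minus that in WT over all 12 libraries. None of the 9 genes passed an adjusted p of 0.05, against 0.00787% of 12711 genes, which is 1 gene, and edgeR and DESeq2 also counted 0. At an unadjusted p under 0.05 there were 2, Rgs1 with a difference of 0.43 ± 0.15 on the log2 scale (limma adjusted p = 0.999) and Rgs12 with -0.56 ± 0.23 (adjusted p = 0.999), against 4.22% of all genes at that threshold. The call of Rgs1 in KO and not in WT is therefore not shown to be a difference between the genotypes. The smallest differences were those of Rgs14 at -0.01 ± 0.10, Rgs10 at -0.02 ± 0.10 and Rgs19 at 0.04 ± 0.09. Comparisons of LPS with untreated and of KO with WT macrophages share groups, so they are not independent.

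Of the 15 other RGS genes and partners, 4 had enough reads to be tested, Rgs9, Rgs11, Rgsl1 and Rgs7bp, and the other 11, among them Rgs13 and Rgs21 between Rgs2 and Rgs18 on chromosome 1, had 1 to 19 reads over all 12 libraries. Rgs11, a regulator of the R7 group, fell with LPS in both genotypes. It had 26.6, 48.4 and 43.6 normalized counts in KO LPS-treated against 121, 130 and 170 in KO untreated macrophages, and 47.9, 47.8 and 54.3 in WT LPS-treated against 208, 222 and 205 in WT untreated macrophages. Its log2 fold change was -1.83 ± 0.25 in KO (limma adjusted p = 1.56e-04) and -2.06 ± 0.13 in WT (adjusted p = 4.39e-07). In untreated macrophages its KO values lay below all WT values, with a log2 fold change of -0.61 ± 0.13 (limma adjusted p = 0.112).

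Rgs9, best known from photoreceptors and striatum, showed the weight of 1 library. It had 10.6, 142 and 8.59 normalized counts in KO untreated macrophages, the high value being that of the replicate with many ribosomal RNA reads, against 5.54, 14.5 and 10.4 in WT untreated macrophages. In LPS-treated macrophages it had 19.4, 37.9 and 28.6 in KO and 25.3, 34.1 and 37.6 in WT. With LPS it rose in WT, by 1.65 ± 0.36 on the log2 scale (limma adjusted p = 0.00240), and had 0.19 ± 0.91 in KO (adjusted p = 0.862). Without KO untreated replicate 2 the KO value was 1.44 (adjusted p = 0.00931) and was called. The counts of called RGS genes stayed at 5 in KO LPS-treated against untreated and at 0 in KO against WT untreated macrophages without that library. Rgs7bp, which anchors R7 proteins at the membrane, fell in WT by 1.20 on the log2 scale (adjusted p = 0.00770) and had -0.95 in KO (adjusted p = 0.0555), and Rgsl1 had -0.77 in KO (adjusted p = 0.0257) and -0.24 in WT (adjusted p = 0.376).

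The G protein subunits on which RGS proteins act gave calls in both directions with LPS, at shares to be read against the 17.3% of all genes that rose and 16.6% that fell in KO and the 17.1% and 16.9% in WT. Of 9 tested G alpha genes, 2 rose and 1 fell in KO and 2 rose and 2 fell in WT macrophages, with a median log2 fold change of 0.33 and 0.49. Gna15, a Gq class subunit of haematopoietic cells, rose to 1209 normalized counts in KO LPS-treated against 365 in KO untreated macrophages and to 937 in WT LPS-treated against 328 in WT untreated macrophages. Gna13 rose by 1.29 on the log2 scale in KO and 1.43 in WT, and Gna12 fell, at -1.94 in KO and -1.88 in WT. Gna11 was called lower in WT alone, at -1.08, and the difference between the LPS responses of the genotypes was not called. Of 11 tested G beta and gamma genes in KO and 12 in WT, 3 and 4 rose and 1 fell, led by Gnb4 at 3.13 in KO and 3.24 in WT, with Gng4 and Gng12 rising and Gnb5 falling in both and Gng3 called higher in WT. In KO, Gng3 was too low to be tested, at 14.5 normalized counts in LPS-treated and 4.23 in untreated macrophages.

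Receptor kinases and arrestins, which switch receptors off before the G protein step, moved in both directions. Of 7 tested genes, 1 rose and 3 fell in KO and 1 rose and 4 fell in WT. Over all genes, 17.3% rose and 16.6% fell in KO, and 17.1% and 16.9% in WT. Grk3 rose by 3.50 in KO and 3.20 in WT on the log2 scale, while Arrb1 fell, at -2.90 and -3.01, and so did Arrb2, at -1.45 and -1.41, and Grk6, at -1.19 and -1.38. Of 14 tested genes on a list named other G alpha regulators, Gpsm2 rose, at 1.35 in KO and 1.46 in WT, Akap10 fell, at -1.56 and -1.52, and 12 gave no call in each genotype. Action of the listed genes on G alpha subunits was not tested.

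The counts of this paragraph stand beside 17.3% of all genes that rose and 16.6% that fell in KO, and 17.1% and 16.9% in WT. Among 9 tested effectors of Gq and G beta-gamma, 4 rose and 2 fell in each genotype. The genes of the G beta-gamma-responsive PI3K gamma were divided, as the regulatory subunit genes Pik3r5 and Pik3r6 rose by 2.66 and 2.76 in KO and by 2.74 and 2.59 in WT, and the catalytic subunit gene Pik3cg fell, at -2.59 in KO and -2.15 in WT. Of the chemoattractant and lipid receptors, 4 rose and 5 fell in each genotype, of 15 tested in KO and 14 in WT. Fpr2, a formyl peptide receptor, had 689 normalized counts in KO LPS-treated against 4.21 in KO untreated macrophages and 817 in WT LPS-treated against 2.35 in WT untreated macrophages, and S1pr1, a sphingosine 1-phosphate receptor, had 23.6 against 1188 in KO and 30.95 against 979.6 in WT. Between the genotypes none of the genes on these lists was called, against 0.193% of all genes in untreated and 0.232% in LPS-treated macrophages. Gngt2 alone passed at an adjusted p under 0.05, with a log2 fold change of 0.83 in LPS-treated macrophages (limma adjusted p = 0.0146). There 0.816% of all genes passed at that threshold. With scaling to total reads or quantile normalization all the called genes of these lists kept their direction, and under both settings Gna13, Gng12, Plcb3 and Rac2 were among those that fell short of 2-fold.

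For each RGS gene, the gene with the most similar course over the 12 libraries was sought by the root mean square difference between centred log2 profiles, among about 9400 genes with a mean of at least 100. The nearest was Zdhhc18 for Rgs1 (0.14), Hacd3 for Rgs2 (0.08), Dgkd for Rgs3 (0.14), Irak4 for Rgs10 (0.06), Siah1a for Rgs12 (0.18), Hk1 for Rgs14 (0.07), Ifi30 for Rgs16 (0.24), Chn2 for Rgs18 (0.08) and C1galt1 for Rgs19 (0.06). The second nearest were Mthfd2, Pcna, Coprs, Epn1, Slc22a15, Clcn7, Cd36, Prmt7 and Wipf1 in the same order, at 0.06 to 0.24. The nearest genes of Rgs16 and Rgs12 were the least alike.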

How the data were processed

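RNA of 12 BMDM libraries was sequenced as poly(A) RNA with paired-end reads. Per the submitters' processing notes, the authors used bcl2fastq (2.17), Trimmomatic (0.39), STAR (2.7.4a) on GRCm38, featureCounts of Subread (2.0.1) and DESeq2 (1.32.0) in R (4.1.2), and counting by strand is not stated. The deposited signal values are counts divided by 1 size factor per library, without a log. Divided by the least nonzero value in the same library, 100% of values were whole reads within a tolerance of 1e-06, and 23524 of 55487 gene models had no read. The read totals set the precision, and the smallest p-values rest on the spread between 3 libraries, which the design text calls biological triplicates.

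For each comparison limma (3.58.1, R 4.3.3) was fitted with a trended variance to log2(normalized count + 1), using the libraries of both groups and genes with a mean of at least 10, so fold changes of low genes are understated. The interaction used all 12 libraries. Intervals are at 95%. The quasi-likelihood test of edgeR (4.0.16), as an alternative on the recovered reads, called 4363 genes for LPS in KO and 4352 in WT, and 18 and 33 between the genotypes in untreated and LPS-treated macrophages. Exon lengths and positions are from a GENCODE annotation of GRCm38, which holds 55227 of the gene models. Figures were drawn with matplotlib (3.10.9).

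The RGS genes, the comparison lists and the tests were chosen with earlier results of these data known. Named were all 9 RGS genes, the tested genes of the wider family, up to 4 called genes of each list per comparison and the 2 genes nearest in profile, and Gngt2, Plcb3 and Rac2 were named after their values were seen. The labels give replicate numbers but do not say that they pair LPS-treated with untreated libraries, and the paper calls the comparisons unpaired. Deviations from the group means correlated for the same number with r = 0.29, 0.28 and 0.17 in KO and 0.33, 0.19 and 0.24 in WT over genes. Each was the highest for its library within the genotype. Between the genotypes the same number gave -0.03, -0.04 and 0.24 in untreated and -0.20, -0.04 and 0.06 in LPS-treated libraries. Different numbers there gave -0.28 to 0.22 and -0.24 to 0.27, so these values do not settle the pairing. The alternatives were other pseudocounts (0.5 and 5), filters (none and a mean of 50), scalings, variance models, a replicate block, edgeR, DESeq2 (1.42.0), an adjusted p alone and leaving out each library. Scaling to total reads was added after the data were seen.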

Additional observations from a re-analysis of the deposited data

How the results depend on the processing

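The count of RGS genes called stayed within 1.5 times its value under nearly all alternatives. For LPS in WT macrophages it was 4, and 2 with upper quartile scaling and 7 at an adjusted p alone. A like count can hold other genes. With scaling to total reads 0 were higher and 4 lower in each genotype, with Rgs10 called and Rgs14 not. With quantile normalization Rgs10 was called in both genotypes, while Rgs1 in KO and Rgs3 in WT were not. The genotype comparisons and the interaction had a count of 0 to begin with. Leaving out 1 library gave 5 in each case for LPS in KO, 3 to 4 for LPS in WT, and 0 for both genotype comparisons and the interaction. With the replicate block the counts were 5 for LPS in KO, 4 for LPS in WT and 0 elsewhere, and no call changed. The labels do not say that the replicate numbers pair libraries across genotypes. With the block there, Rgs1 in LPS-treated macrophages had a limma adjusted p of 0.0300. Over all genes, 44 in place of 24 were then called in untreated macrophages. In the interaction the block joined libraries of the same number within a genotype. There 6 in place of 1 were called over all genes, and Rgs1 had a limma adjusted p of 0.196.

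Of the fold changes of the RGS genes, 849 of 899 values under the alternatives kept their direction and side of the threshold. Part of this was fixed in advance. Other filters, other variance models, the fit of all 12 libraries and the replicate block leave the limma fold change as it was and can only alter a call. In the genotype comparisons and the interaction no RGS gene was called at first, so no call could be lost there. The LPS change turned with quantile normalization for Rgs2 (-0.53 in KO, -0.75 in WT), Rgs12 in KO (0.19), Rgs1 in WT (-0.13) and Rgs16 in WT (0.046), with upper quartile scaling for Rgs12 in KO (0.066), and with scaling to total reads for Rgs2 (-0.30 in KO, -0.58 in WT), Rgs16 in KO (-0.32) and Rgs12 in WT (-0.28). The KO against WT value of Rgs12 in LPS-treated macrophages turned to -0.0096 with upper quartile scaling and -0.0081 with quantile normalization, and the interaction of Rgs10 and Rgs14 to 0.015 and 0.033 with scaling to total reads. The cause was not tested. Leaving out 1 library turned values near 0: the LPS change of Rgs12 in KO (-0.25 to 0.032), KO against WT in untreated macrophages for Rgs18 (-0.14 to 0.0014), Rgs1 (-0.059 to 0.084) and Rgs16 (-0.41 to 0.075), KO against WT in LPS-treated macrophages for Rgs3 (-0.27 to 0.036), Rgs12 (-0.13 to 0.16) and Rgs14 (-0.0084 to 0.10), and the interaction for Rgs10 (-0.080 to 0.040) and Rgs14 (-0.074 to 0.039).

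Over all genes, the KO against WT counts of 24 in untreated and 29 in LPS-treated macrophages were 2 and 5 without a variance trend and 50 and 43 with DESeq2, and in untreated macrophages 42 with no filter and 11 at a mean of at least 50. Leaving out 1 library gave 4 to 26 in untreated macrophages, with 4 and 6 without WT replicates 2 and 1 and 5 and 11 without KO replicates 3 and 2, and 11 to 42 in LPS-treated macrophages, with 11 without WT replicate 2 and 15 without KO replicate 3. DESeq2 called 24 in the interaction. With 3 libraries per group, and fewer than 130 normalized counts per library for Rgs3 and Rgs12, differences under 2-fold between genotypes were measured with wide intervals.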
